A study of Mus musculus with 6 samples.

Results

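Vps37b, Magi1 and 1700028J19Rik are 3 genes of 32245 distinct symbols in the count table that were chosen by their rise in Zfp335-deficient (KO) over wild-type (WT) libraries and because they belong to no pathway discussed in the study. All 3 were among the 17307 genes that passed the filter on low counts. Because the difference between KO and WT chose them, their levels in the 2 groups are a description, and no p-value is given for them.

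The libraries are bulk RNA-seq of CD4+CD25+ regulatory T cells (Tregs) sorted from the spleens of C57BL/6 mice, with 3 libraries per group. KO mice were ERCre+Zfp335f/f, which carry loxP-flanked Zfp335 alleles and a Cre recombinase fused to a mutated estrogen receptor domain that becomes active when tamoxifen is given. The study's methods describe tamoxifen at 10 mg/mL given in 3 injections from 6 weeks of age, with sacrifice on day 7, and ERCre mice with intact Zfp335 as controls. The labels instead call the controls wild-type littermates and mention tamoxifen for neither group, so whether the controls carried an active Cre is not settled by these sources. ERCre is not limited to Tregs, and other cells of the KO mice could also lose Zfp335. The labels do not say how many mice stand behind each library, so the spread between libraries may be partly technical.

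VPS37 proteins are subunits of ESCRT-I, a complex that gathers ubiquitin-tagged membrane receptors on endosomes and passes them on for sorting into internal vesicles and breakdown in lysosomes. In T cells this route helps to set how long signaling receptors stay at the surface. MAGI-1 belongs to the membrane-associated guanylate kinase (MAGUK) family, scaffolds whose PDZ and WW domains hold receptors, adhesion molecules and signaling proteins together, and it is best known from epithelial and endothelial junctions. For 1700028J19Rik no function is given here. GENCODE lists it as protein coding, whereas RefSeq lists it as a long noncoding RNA.

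The libraries held between 133283969 and 209041812 counts. Levels are given as CPM, counts per 1000000 of a library's total after TMM scaling, a method that corrects totals for differences in RNA composition. Zfp335 was 124.4, 120.7 and 115.2 CPM in WT replicates 1 to 3 and 15.0, 14.3 and 15.1 CPM in KO replicates 1 to 3, a difference of -3.02 on the log2 scale (SE 0.046, edgeR quasi-likelihood adjusted p = 1.2e-13). Foxp3, the lineage factor of Tregs, averaged 1136 ± 17.4 CPM in WT against 1052 ± 9.24 CPM in KO (SD, n = 3 each, edgeR adjusted p = 0.0163). Of 7 Treg identity genes, all present in each library, Foxp3 and Il2ra were lower, and Ctla4 and Tnfrsf18, named after their values were seen, were higher in KO, whereas Cd4 and the other two did not pass (edgeR). That is 28.6% each way at an adjusted p under 0.05. Among all genes tested, 12.0% were higher and 12.1% were lower by the same rule. RNA of other cells moved with the groups. Of 35 marker genes tested for B, myeloid, CD8 T and NK, red, and endothelial, epithelial and stromal cells, 21 were lower and 0 were higher in KO by edgeR (21 lower and 1 higher at an unadjusted p under 0.05, and 0 higher by DESeq2). This was 60% lower and 0% higher, against 12.1% and 12.0% of all genes. In bulk RNA, fewer cells of a type and less RNA per cell cannot be told apart. Xist is the RNA that coats the inactive X chromosome of female cells. It lay between 0.187 and 0.424 CPM in WT and between 123.9 and 144.7 CPM in KO. Y-linked Ddx3y was at least 76.6 CPM in each library, but every KO library was below every WT library. Ddx3y averaged 102.7 ± 3.88 CPM in WT against 78.7 ± 1.81 CPM in KO (SD, n = 3 each). The labels give no sex, and a difference in sex makeup cannot be told apart from the genotype.

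**Figure D1:**
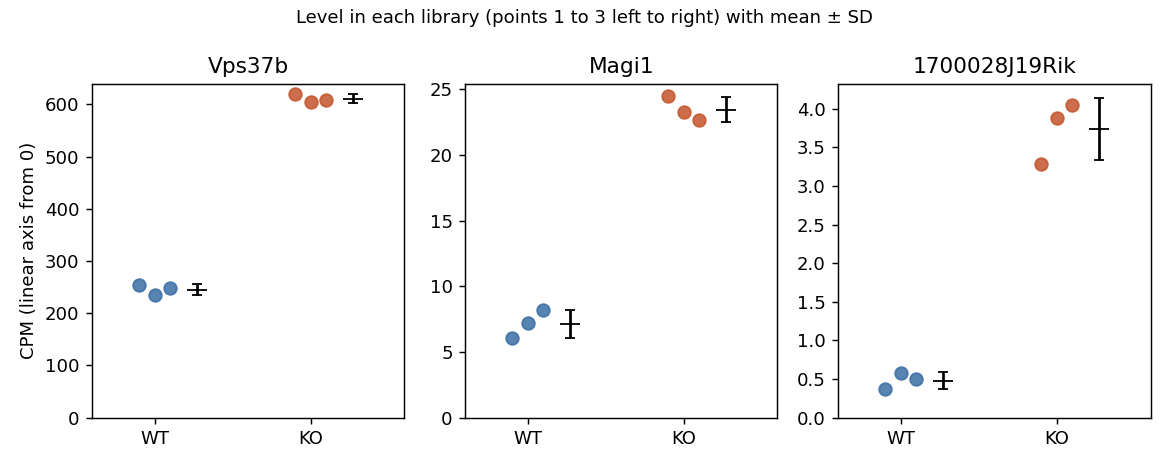
Level of each gene in the 6 libraries in CPM, on linear axes that start at 0, with replicates 1 to 3 from left to right in each group and a bar for the mean ± SD (n = 3). The KO points of Vps37b, Magi1 and 1700028J19Rik all lie above the WT points of the same gene. The genes were chosen by this rise, so the separation is a description, and 19.3% of all genes tested had KO above WT without overlap.

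Vps37b, the most abundant of the 3 genes, was 253.9, 234.4 and 247.5 CPM in WT replicates 1, 2 and 3 and 620.5, 604.8 and 607.8 CPM in KO replicates 1, 2 and 3. Both groups were tight and far apart. The lowest KO library was 2.38 times the highest WT library, and the mean went from 245.3 ± 9.97 CPM in WT to 611 ± 8.35 CPM in KO (SD, n = 3 each), or 1.32 on the log2 scale (SE 0.036). The coefficient of variation between replicates was 4.07% in WT and 1.37% in KO. In WT Tregs Vps37b already had a higher CPM than 95.3% of the genes tested, and in KO it was higher than 98.7%. The mean gain of 366 CPM ranked 8 among the 17307 genes tested, although its log2 fold change ranked only 249.

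Magi1 was weakly expressed in WT Tregs, at 6.07, 7.20 and 8.18 CPM in replicates 1, 2 and 3, and reached 24.5, 23.2 and 22.6 CPM in KO replicates 1, 2 and 3. No KO library came near the WT range, and the lowest KO value was 2.76 times the highest WT value. The mean went from 7.15 ± 1.06 to 23.4 ± 0.958 CPM (SD, n = 3 each), or 1.73 on the log2 scale (SE 0.083). Its relative spread in WT, 14.8%, was wider than the 4.09% in KO. The raw counts behind these values were between 1101 and 1371 in WT and between 4355 and 4818 in KO.

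1700028J19Rik showed the largest fold of the 3 genes at the lowest level. It was 0.368, 0.577 and 0.498 CPM in WT replicates 1, 2 and 3 and 3.29, 3.89 and 4.05 CPM in KO replicates 1, 2 and 3. The groups were separated by 5.70 times between the nearest libraries. The mean went from 0.481 ± 0.106 to 3.74 ± 0.397 CPM (SD, n = 3 each), or 2.96 on the log2 scale (SE 0.182). These levels rested on 67, 110 and 67 counts in WT and on 587, 806 and 779 counts in KO, and the replicate spread was 21.9% in WT and 10.6% in KO. Fold and level thus ran in opposite orders across the 3 genes, with folds of the means of 2.49 for Vps37b, 3.28 for Magi1 and 7.78 for 1700028J19Rik.

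Among the 11078 genes whose average log2 CPM reached 1, the log2 fold change of 1700028J19Rik ranked 2, that of Magi1 ranked 7 and that of Vps37b ranked 15. At 1.09, 1700028J19Rik reached that limit only through its KO libraries, since its mean in WT was 0.481 CPM. Over all 17307 genes tested, the ranks in the same order were 28, 136 and 249. These ranks use the same contrast as the choice of the genes. Per kilobase of annotated exon, Vps37b went from 87.9 to 219 CPM per kb, Magi1 from 0.676 to 2.22 CPM per kb and 1700028J19Rik from 0.195 to 1.51 CPM per kb, so that the order of the levels was the same in both groups.

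**Figure D2:**
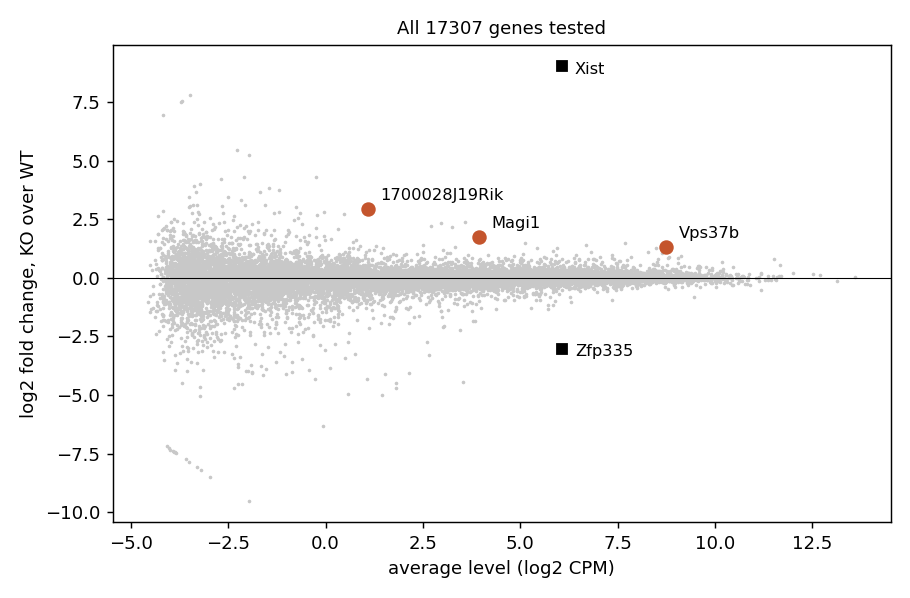
Log2 fold change of KO over WT against the average level in log2 CPM for the 17307 genes tested (grey), with Vps37b, Magi1 and 1700028J19Rik in orange and Zfp335 and Xist as black squares. The cloud narrows toward high levels, and Vps37b at 1.32, Magi1 at 1.73 and 1700028J19Rik at 2.96 lie above it at an average log2 CPM of 8.74, 3.94 and 1.09. These 3 genes were chosen by their rise in the same contrast, so their place is a description.

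The loci lie on 3 chromosomes of GRCm38, each with the gene on the minus strand. Vps37b spans chr5:124004641-124032270 with 2789 exon bases. Its last exons overlap the end of Hip1r, an actin- and clathrin-binding adaptor gene of the plus strand, over 918 exon bases, which is 32.9% of the Vps37b exons and 12.5% of the Hip1r exons. Whether reads were counted by strand is not given in the sources used here, and without strand the reads of this stretch cannot be assigned to either gene. Gm37939, also on the plus strand, overlaps 447 exon bases of Vps37b, or 16%. Of the 50-base transcript stretches of Vps37b, 39.7% also occur, on either strand, in transcripts of Hip1r or Gm37939, so that part of its counts is less certain. Hip1r itself was 171.3, 157.2 and 158.1 CPM in WT and 180.6, 174.5 and 176 CPM in KO. KO was above WT by 0.13 on the log2 scale (SE 0.039, edgeR adjusted p = 0.0304), and its means of 162.2 and 177 CPM lay much closer together than those of Vps37b.

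Magi1 spans 608463 bases, chr6:93675455-94283917, and shared no exon base with another gene and none of its 50-base transcript stretches with transcripts of other genes. GENCODE places its transcript starts in clusters from 93912504 to 93913690 and from 94283025 to 94283917, apart from a single start at 93792539, and gene counts do not tell which start was used. RefSeq promoter windows were available for 2 starts of the first cluster. The window before the start at 93913690 is shown as the one with no annotated untranslated base. From chr6:93913691-93913940 of GRCm38.p6, minus strand, 5′ to 3′, with capitals on each match to CCAAT or to GGGCGG, the latter found on the other strand, it reads:
Magi1: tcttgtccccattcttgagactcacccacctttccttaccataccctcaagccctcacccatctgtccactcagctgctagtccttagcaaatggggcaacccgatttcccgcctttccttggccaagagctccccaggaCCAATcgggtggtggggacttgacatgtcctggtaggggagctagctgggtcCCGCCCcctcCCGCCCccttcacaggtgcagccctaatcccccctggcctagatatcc
It held 1 CCAAT and 2 GGGCGG matches, motifs present on either strand in 33.8% and 32.7% of the 32851 RefSeq promoter windows of the same length. The window of the other Magi1 start held none of the motifs searched, which were TATAAA (the TATA box), CCAAT (the CCAAT box), GGGCGG (the GC box), TGACGTCA (the CRE), TGANTCA (the AP-1 site), CACGTG (an E-box) and the p53 half-site, all on both strands.

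1700028J19Rik spans chr7:44229811-44246695, with GENCODE starts at 44232491, from 44236104 to 44236184 and at 44246695. The window of 250 bases before the RefSeq start held 0 CpG dinucleotides, against a median of 6 over all windows, and 52.4% GC, the median of all windows. It held a CCAAT match and a match to the p53 half-site, which 7.13% of all windows hold. The stretch around the latter, chr7:44236310-44236339 of GRCm38.p6, minus strand, 5′ to 3′, is printed with the match in capitals because it is the rarer of the 2 matches. All of it lies within annotated untranslated sequence of Gm36864 on the other strand:
1700028J19Rik: gagcaggatgGGGCTAGTCTctgaatgtac
Of the 50-base stretches of 1700028J19Rik, 7.63% also occur in transcripts of other genes, among them Gm10109 and Uevld, so that part of its counts is less certain. A RefSeq window for Vps37b was not used here.

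The rise of Vps37b was compared with the rest of the ESCRT machinery. Of the other 30 ESCRT genes, all tested, 2 were higher in KO and 3 were lower by edgeR at an adjusted p under 0.05, and 25 did not pass. Over all genes tested, 12.0% were higher and 12.1% were lower by the same rule, against 6.67% and 10% of the ESCRT genes. The median log2 fold change was 0.006 for the ESCRT genes and -0.0042 for all genes. Groups without overlap were seen in 6 ESCRT genes with KO above WT and in 6 with KO below, while 19.3% of all genes had KO above and 19.1% had KO below.

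Within ESCRT-I, none of the paralogs of Vps37b passed the test with a rise. Vps37a fell from 32.4 ± 2.35 to 28.1 ± 1.64 CPM (SD, n = 3 each), or by 0.20 on the log2 scale (SE 0.060, edgeR adjusted p = 0.0273). Vps37c was 30.8 ± 2.55 CPM in WT against 32.3 ± 1.03 CPM in KO (edgeR adjusted p = 0.443), and its groups overlapped. Vps37d was close to the limit of the filter, with 0.196 ± 0.053 and 0.242 ± 0.083 CPM. The core subunit Tsg101, which recognizes ubiquitin on cargo, had means of 36.86 and 36.86 CPM, and Vps28, which links ESCRT-I to the next complex, was 112.5 and 106.3 CPM (edgeR adjusted p = 0.123). The accessory subunit Mvb12b rose slightly, from 43.4 ± 1.51 to 47.5 ± 0.086 CPM (log2 fold change 0.13, edgeR adjusted p = 0.0343).

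On CPM per kb, Vps37b made up 84.1%, 83.8% and 84.6% of the summed VPS37 transcripts in WT replicates 1 to 3 and 93.2%, 92.7% and 93.1% in KO replicates 1 to 3. The family sum was 105 ± 4.06 CPM per kb in WT and 236 ± 2.62 CPM per kb in KO (SD, n = 3 each). Thus Vps37b held the largest share of the VPS37 counts per kb in both groups, with the reads of its overlap with Hip1r left as counted. The shares and the family sum include Vps37b, which was chosen by its rise, so their change between the groups is a description.

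Elsewhere in the pathway, Ptpn23, a phosphatase-like Bro1 protein that works between ESCRT-I and ESCRT-III, rose by a log2 fold change of 0.26 (110.8 ± 7.07 to 132.6 ± 1.57 CPM, edgeR adjusted p = 0.000771). Stam, which captures ubiquitinated cargo in ESCRT-0, fell by 0.32 on the log2 scale (edgeR adjusted p = 0.00083). Chmp2a, a membrane-cutting ESCRT-III subunit, fell by 0.19 (edgeR adjusted p = 0.00269). The range of the 30 genes was -0.35 to 0.36, both ends being genes that did not pass. The counts depended on single libraries, with 5 ESCRT genes higher without WT replicate 1, and 1 higher without WT replicate 2 or without KO replicate 1, 2 or 3. Calls over all genes also moved in these fits, from 4170 with all libraries to 4996 without WT replicate 1 and 2740 without WT replicate 2. Without KO replicate 1, 2 or 3 they were 2904, 2800 and 2986. The counts without a library given below for other lists stand beside these totals.

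Other genes named for vacuolar protein sorting, among them the retromer, HOPS and GARP subunits and the lipid-transfer VPS13 proteins, were examined next. Of 24 tested, 2 were higher and 2 were lower in KO (edgeR), 8.33% each way against 12.0% and 12.1% of all genes. Vps18, a core subunit of the HOPS and CORVET tethering complexes, rose from 23.9 ± 2.98 to 31.3 ± 0.966 CPM (log2 fold change 0.38, edgeR adjusted p = 0.00174), and Vps39, its HOPS partner, by 0.14 on the log2 scale (edgeR adjusted p = 0.023). Vps13a and Vps41 fell by 0.20 and 0.13 on the log2 scale (edgeR adjusted p = 0.00112 and 0.0406). Without WT replicate 1 the counts were 5 higher and 6 lower, and without WT replicate 2 or any 1 KO replicate they were 1 and 1.

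**Figure D3:**
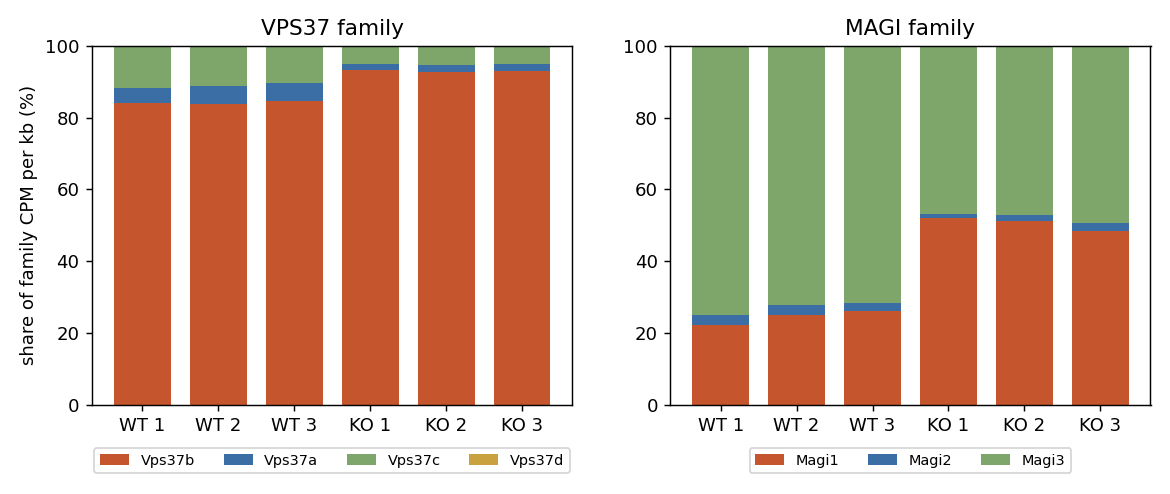
Share of each paralog in the summed CPM per kb of exon of the VPS37 family (left) and the MAGI family (right), as stacked bars of 100% for each of the 6 libraries. Vps37b holds from 83.8% to 84.6% in WT and from 92.7% to 93.2% in KO, and Magi1 from 22.2% to 26% in WT and from 48.4% to 52.1% in KO.

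Magi1 was likewise set beside its family. Of 23 other MAGUK genes tested, 0 were higher and 6 were lower in KO by edgeR (1 and 8 at an unadjusted p under 0.05, and 0 and 6 by DESeq2). This was 26.1% lower, against 12.1% of all genes, with a median log2 fold change of -0.132. Magi3, the most abundant MAGI gene in WT per kilobase, was 16.5, 16.7 and 18.2 CPM in WT and 17.8, 17.2 and 18.5 CPM in KO, and the groups overlapped (log2 fold change 0.064, edgeR adjusted p = 0.485). Magi2 was below 1 CPM on average in both groups, at 0.828 ± 0.049 and 0.803 ± 0.325 CPM. On CPM per kb, the share of Magi1 in the 3 MAGI genes went from 24.4% ± 2.0 in WT to 50.6% ± 1.91 in KO (SD, n = 3), and that of Magi3 from 72.9% ± 1.77 to 47.8% ± 1.31. The family sum was 2.76 ± 0.196 CPM per kb in WT and 4.38 ± 0.084 CPM per kb in KO. These shares and sums include Magi1, which was chosen by its rise, so their change is a description.

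The MAGUK genes that fell did so by small amounts. Dlg5, a polarity scaffold, fell from 4.53 ± 0.0074 to 3.35 ± 0.315 CPM (log2 fold change -0.43, edgeR adjusted p = 0.00696). Tjp3, the tight junction protein ZO-3, fell from 23.1 ± 0.849 to 18.9 ± 0.833 CPM (log2 fold change -0.30, edgeR adjusted p = 0.00131), and Mpp2 fell by 0.20 on the log2 scale (edgeR adjusted p = 0.0359). Cacnb1 and Mpp1, named after their values were seen, also fell, each by 0.18 on the log2 scale. Without WT replicate 2, 2 MAGUK genes passed, and without KO replicate 1, 2 or 3, 3 passed. Calls over all genes fell in the same fits, from 4170 to 2740 without WT replicate 2 and to between 2800 and 2986 without a KO replicate.

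Of 6 genes for proteins known to bind MAGI-1, 1 rose and 1 fell (edgeR), 16.7% each way against 12.0% and 12.1% of all genes. Rapgef2, an activator of Rap GTPases, rose from 60.7 ± 0.942 to 68.3 ± 0.238 CPM (log2 fold change 0.17, edgeR adjusted p = 0.00349). Ctnnb1, which encodes beta-catenin, fell from 210.8 ± 6.62 to 174.1 ± 3.05 CPM (log2 fold change -0.28, edgeR adjusted p = 6.49e-05). Actn4, Synpo and Net1 did not pass. Because MAGI-1 is best known from epithelium and endothelium, the markers of those cells were read beside it. Of 9 tested endothelial, epithelial and stromal markers, 0 were higher and 2 were lower in KO by edgeR (0 and 2 at an unadjusted p under 0.05). This was 22.2% lower, against 12.1% of all genes. The summed level of these markers was between 186 and 190 CPM in WT and between 182 and 188 CPM in KO. Most of it was Pecam1, which T cells also express, and 5 of the 10 listed markers were below 1 CPM in each library. Cdh5, which marks endothelium, was 0.651 ± 0.133 CPM in WT against 0.307 ± 0.105 CPM in KO.

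**Figure D4:**
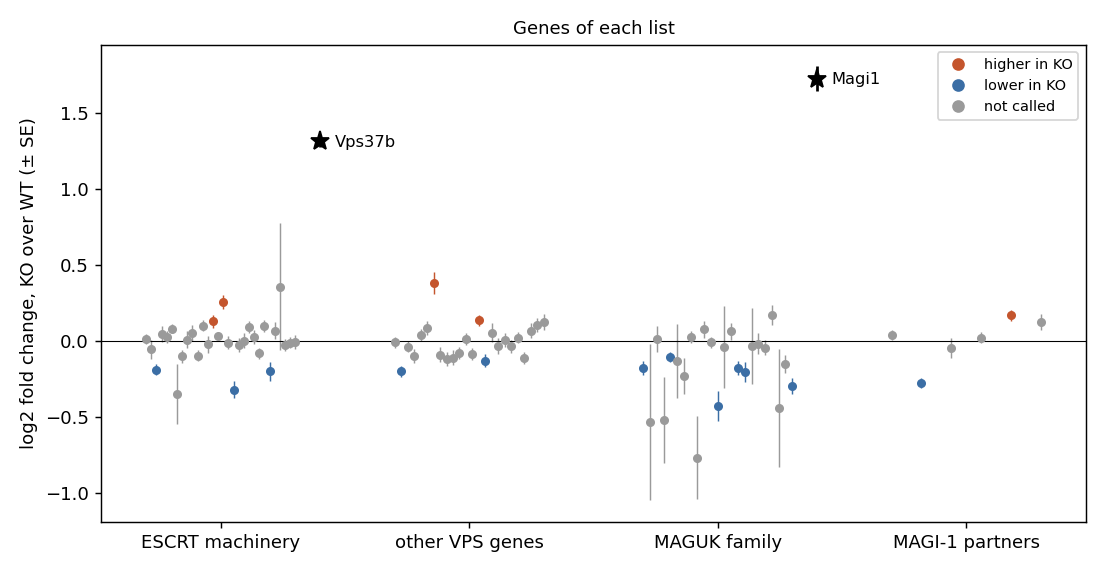
Log2 fold change of KO over WT with its standard error for the tested genes of the 4 lists, colored by edgeR call at an adjusted p under 0.05, with Vps37b and Magi1 as black stars beside their lists. The other ESCRT genes lie between -0.35 and 0.36 and the other MAGUK genes between -0.77 and 0.17, below Vps37b at 1.32 and Magi1 at 1.73. Vps37b and Magi1 were chosen by their rise in the same contrast, so their place above the lists is a description.

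1700028J19Rik was compared with other genes that still carry a RIKEN clone name, most of which were weakly expressed. Of 2523 such symbols in the table, 871 passed the filter, of which 54 were higher and 55 were lower in KO (6.20% and 6.31%, against 12.0% and 12.1% of all genes), with a median log2 fold change of 0.010. Among the 872 that include it, 1700028J19Rik had the fold change of rank 3. The genes above it were 1700007K13Rik, which went from 0, 0.021 and 0 CPM in WT to 0.437, 0.424 and 0.254 CPM in KO (edgeR adjusted p = 0.000183), and 4930593A02Rik, which went from 0.011 ± 0.015 to 0.163 ± 0.078 CPM (edgeR adjusted p = 0.00743). Both remained below 1 CPM in every library, whereas 1700028J19Rik was at least 3.29 CPM in KO. Among the RIKEN-named genes called higher, the next after these was 5033406O09Rik, which rose from 0.064 ± 0.031 to 0.261 ± 0.080 CPM (edgeR adjusted p = 0.0128). The largest falls among those called lower were those of 9530052E02Rik, 2210010C04Rik and 4930426D05Rik, all from WT means under 1 CPM. The count of RIKEN-named genes called higher was 22 without WT replicate 2 and between 28 and 34 without KO replicate 1, 2 or 3, and those called lower numbered between 26 and 30 in the same fits.

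To see whether the rise was shared along the chromosome, genes whose start lies within 500 kb of each start were examined. Around Vps37b, 8 of 25 tested neighbors were higher and 1 was lower in KO (edgeR), which is 32% and 4%, against 12.0% and 12.1% of all genes. Gm34086, a noncoding gene that starts 91 bases from Vps37b in the other direction, was 0.184 ± 0.031 CPM in WT against 0.227 ± 0.044 CPM in KO, and the groups overlapped (edgeR adjusted p = 0.644). Of the neighbors that passed, the nearest after Hip1r was the lysosomal peptide transporter gene Abcb9. It rose by 0.26 on the log2 scale (41.5 ± 1.46 to 49.8 ± 1.41 CPM, edgeR adjusted p = 0.000603). The next that passed were Gm16001, up by 0.45 (edgeR adjusted p = 0.0118), and Ogfod2, up by 0.26 (edgeR adjusted p = 0.000935). Then came Pitpnm2, a phosphatidylinositol transfer protein, up by 0.24 (edgeR adjusted p = 0.000132). At distances between those of Ogfod2 and Pitpnm2, Arl6ip4, Ccdc62, Denr, Pitpnm2os2 and Hcar2 did not pass. The largest rise that passed among these neighbors was 0.45. The 1.32 of Vps37b is a description beside it, since Vps37b was chosen by its rise in the same contrast. Without WT replicate 2 or without KO replicate 2 only 4 neighbors of Vps37b were higher, without KO replicate 1 or KO replicate 3 there were 5, and with library size only, which scales for the total alone, there were 5. With the study's cutoffs, which add a 1.5-fold limit, 0 were higher and 0 were lower.

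Around Magi1 only 2 neighbors were tested. Slc25a26, the mitochondrial carrier of S-adenosylmethionine, was 5.58 ± 0.188 and 5.77 ± 0.371 CPM (edgeR adjusted p = 0.714). Lrig1, a negative regulator of growth factor receptors, was 317.4, 305.1 and 297.1 CPM in WT and 377, 364.2 and 351.4 CPM in KO, without overlap (log2 fold change 0.25, edgeR adjusted p = 0.000291).

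Around 1700028J19Rik, 2 of 30 tested neighbors were higher and 6 were lower in KO (edgeR), 6.67% and 20% against 12.0% and 12.1% of all genes. Its most upstream annotated start lies 27 bases from the start of 2410002F23Rik, which points away from it on the plus strand. That gene was 106.4, 110.9 and 115.6 CPM in WT and 109.1, 108.6 and 110.3 CPM in KO, with overlapping groups (log2 fold change -0.021, edgeR adjusted p = 0.747). At the other cluster of starts, Gm36864 begins on the plus strand at 44236177, within the window before the RefSeq start of 1700028J19Rik. Gm36864 was 0.121, 0.210 and 0.059 CPM in WT and 0.381, 0.598 and 0.550 CPM in KO, and every KO library was above every WT library. It rose by 1.90 on the log2 scale (SE 0.401, edgeR adjusted p = 0.0039). The annotated exons of Gm36864 and 1700028J19Rik share 8 bases, 0.324% of those of 1700028J19Rik, and reads of unannotated parts cannot be assigned to a strand.

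Of the neighbors of 1700028J19Rik that fell, Spib, a transcription factor of B cells and plasmacytoid dendritic cells, fell from 4.98 ± 0.432 to 1.56 ± 0.130 CPM (log2 fold change -1.67, edgeR adjusted p = 4.03e-07). Beside it, the 6 B cell markers all fell (edgeR, 100% against 12.1% of all genes). Their summed level was between 57.9 and 63.1 CPM in WT and between 27.7 and 29.1 CPM in KO, led by Cd79b at 16.3 ± 0.976 CPM in WT. The part of B cell RNA in the fall of Spib was not tested. Shank1, a synaptic scaffold, fell from 1.83 ± 0.662 to 0.658 ± 0.049 CPM (edgeR adjusted p = 0.000823), and 5430431A17Rik and Josd2 fell by 1.16 and 0.14 on the log2 scale (edgeR adjusted p = 0.0152 and 0.0442). The number of neighbors called lower was 3 without KO replicate 3 and 4 without WT replicate 2 or KO replicate 2, and 4 were called higher without WT replicate 1.

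**Figure D5:**
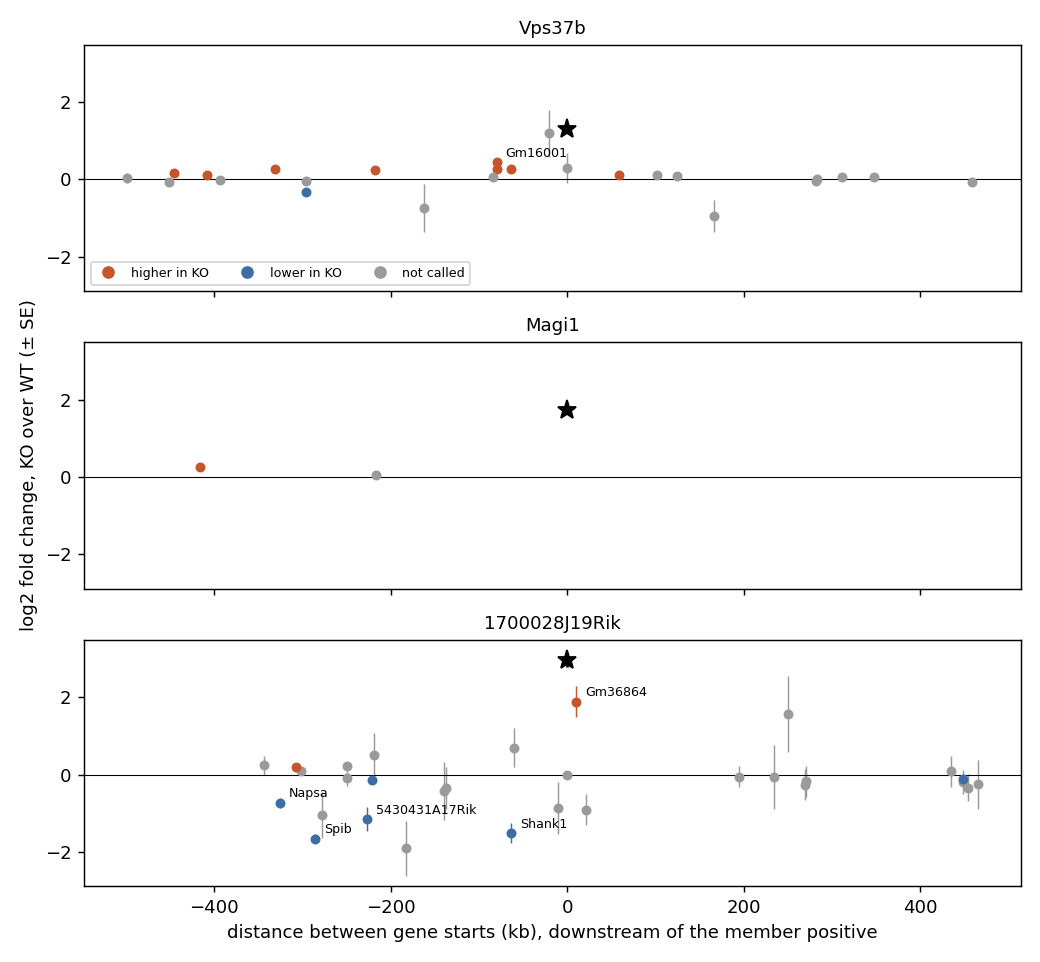
Log2 fold change of KO over WT with its standard error for tested genes that start within 500 kb of Vps37b (top), Magi1 (middle) and 1700028J19Rik (bottom), against the distance between gene starts in kb, with positive values downstream of the gene and black stars for the 3 genes themselves. Neighbors of Vps37b that passed lie at 0.45 or below, and Gm36864 at 1.90 is the highest neighbor of 1700028J19Rik that passed.

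Markers of the remaining cell types were summed in the same way. The summed level of 6 red cell genes was between 36.6 and 43.5 CPM in WT and between 1.81 and 2.31 CPM in KO, with Hba-a1 the highest in WT at 21.9 ± 2.45 CPM. That of 9 myeloid and neutrophil genes was between 46.5 and 55.6 CPM in WT and between 22.3 and 23.9 CPM in KO, with Lyz2 the highest in WT at 19.7 ± 1.78 CPM. Of these 9, 7 fell (edgeR), which is 77.8% against 12.1% of all genes. The other two, macrophage genes named after their values were seen, did not pass: Csf1r was 8.80 ± 1.02 CPM in WT against 10.3 ± 0.596 CPM in KO without overlap (edgeR adjusted p = 0.0821), and Adgre1 was 1.64 ± 0.157 and 1.67 ± 0.108 CPM (edgeR adjusted p = 0.918). The summed level of 5 CD8 T and NK cell genes was between 15.8 and 17.2 CPM in WT and between 15.3 and 16.8 CPM in KO, with Cd8b1 the highest. By edgeR, 0 passed in either direction, also without adjustment. The part of other cells in the levels of the 3 genes was not tested.

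Genes with the profile most like each of the 3 were named by Pearson's r of log2 CPM over the 6 libraries among genes whose average log2 CPM reached 1. With 2 groups of 3, a high r mostly repeats the step between the groups, and 191 genes for Vps37b, 108 for Magi1 and 95 for 1700028J19Rik had r above 0.99. For Vps37b the nearest genes were Gramd4, Klf4, Ccr7, Foxn3 and Klf11, with r between 0.9993 and 0.9996. Klf4, a transcription factor that restrains lymphocyte proliferation, was 92, 89.8 and 91.9 CPM in WT and 153.5, 153.1 and 153.8 CPM in KO. Ccr7, the receptor that guides T cells into lymph nodes, was 317.9, 307.1 and 317.2 CPM in WT and 603.6, 590.5 and 580.6 CPM in KO. Both were raised by less than Vps37b on the log2 scale, at 0.75 and 0.91.

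For Magi1 the nearest genes were Tdp2, a DNA repair phosphodiesterase, Gimap6, a GTPase of lymphocytes, Ifrd1, Ndc1 and Ubl5, with r between 0.9984 and 0.9989. Gimap6 had means of 467.9 and 651.2 CPM and Ifrd1 of 77.9 and 134.4 CPM in WT and KO. For 1700028J19Rik they were Arl5b, Itgav, Taf5, Samd8 and Frmd4b, with r between 0.9980 and 0.9996. Arl5b had means of 24.8 and 42.1 CPM, and Itgav, an integrin chain, of 37 and 40.7 CPM.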

How the data were processed

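RNA-seq libraries of splenic CD4+CD25+ Tregs were compared, 3 WT and 3 KO, grouped by the sample labels. The deposited table holds raw, unscaled counts by symbol in 32285 rows. The submitters' processing notes name HISAT2, DESeq2 and mm10 without roles, and the counter and strand setting are not given in the sources used here. For the 40 repeated symbols the row of highest total carries the name, and the others were kept as separate rows. In R 4.3.3, edgeR 4.0.16 was used with filterByExpr, TMM scaling and the quasi-likelihood F-test (newer method, robust), with Benjamini-Hochberg adjustment over 17307 genes and calls at an adjusted p under 0.05. The standard error was derived from the F statistic. The steps were tested on simulated data. Log2 CPM used a prior count of 2. Positions and exon lengths come from GENCODE M21 (GRCm38), and promoter windows, cut to the 250 bases before the start, from RefSeq (GRCm38.p6), where 2 of the 3 genes matched.

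The members and lists were chosen with earlier results of these data known. Named genes were the members, their paralogs, Zfp335, Xist, Treg markers, up to 3 genes called in each direction per list with the largest changes, up to 5 called neighbors by distance plus the nearest tested neighbor on each side, the 5 genes most alike in profile, and the marker highest in WT of each list of other cells. Other genes named were chosen after their values were seen, and values of some list genes are not reported here. Alternatives were RLE factors, library size only, no filter, DESeq2 1.42.0, a replicate block, each library left out, repeated symbols added, and the study's cutoffs (1.5-fold, p under 0.05, adjusted p under 0.1). Depth was between 133283969 and 209041812 counts, and replicate pairs differed by more than counting noise.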

Additional observations from a re-analysis of the deposited data

How the results depend on the processing

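Over the 12 alternatives run for them, the log2 fold changes ranged from 1.28 to 1.34 for Vps37b, from 1.62 to 1.82 for Magi1 and from 2.78 to 3.15 for 1700028J19Rik. The 3 genes were chosen by their rise in these same libraries, so their kept direction is a description and no test of the rise. Zfp335 stayed lower, from -3.06 to -3.0. Counts in the lists varied between the alternatives. With library size only, 1 ESCRT gene was higher and 6 were lower, and 1 other VPS gene was higher and 5 were lower. DESeq2 called 4 ESCRT genes higher, and with no filter 1 other VPS gene was lower. With the study's cutoffs, which add a 1.5-fold limit, ESCRT, other VPS and MAGI-1 partner genes gave 0 higher and 0 lower, MAGUK genes 1 lower, and RIKEN-named genes 28 higher and 32 lower. Neighboring genes gave 1 higher and 5 lower, with 0 higher and 0 lower around Vps37b. Leaving out single libraries, the numbers higher and lower ranged from 1 to 5 and from 2 to 4 for ESCRT genes, from 1 to 5 and from 1 to 6 for other VPS genes, from 2 to 6 lower for MAGUK genes, from 1 to 2 higher for MAGI-1 partners, from 22 to 53 and from 26 to 62 for RIKEN-named genes, and from 7 to 12 and from 4 to 7 for neighboring genes. Other cell markers stayed at 0 higher and from 19 to 21 lower. Over all genes, 4170 were called, from 2740 without WT replicate 2 to 4996 without WT replicate 1, 4425 with DESeq2 and 1203 with the study's cutoffs. Without KO replicate 1, 2 or 3, 2904, 2800 and 2986 were called. The cause of these shifts was not tested. Same-numbered libraries did not deviate together (correlations of 0.052, -0.0098 and -0.027), so libraries were not treated as paired. With the replicate block, 4227 genes were called and Vps37b was at 1.32 on the log2 scale, with ESCRT genes at 2 higher and 3 lower. Library totals differed up to 1.57 times, and 1700028J19Rik rested on as few as 67 counts in WT.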
